A study of Homo sapiens with 7 samples.

Results

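The estrogen receptor alpha gene, ESR1, was described in T-47D, an estrogen receptor-positive luminal breast cancer cell line, from 6 lists of chromatin immunoprecipitation sequencing (ChIP-seq) peaks. The members were all peaks that shared at least 1 bp with a 600 kb window of chromosome 6 (hg19, 151900000 to 152500000). This took 127 peaks of 286998 in the 6 lists. The gene was taken at about 152011000 to 152425000 on the plus strand, which leaves 111 kb of window before it and 75 kb after it. The groups were the antibodies: H3K27ac, H3K4me2, H3K36me3, H3K27me3, H2A.Z and H3K9me3, each with 1 library of cells grown in serum, with no treatment named in the labels, and an input library that was not analysed here. There were no replicates, so no difference below has a test, and every value describes these libraries.

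As background, the estrogen receptor is a nuclear receptor that binds DNA when estrogen is bound to it, and it drives growth of luminal breast cancers. ESR1 has several alternative promoters spread over a long upstream part of the gene, which join different first exons to a shared body. H3K4me2 and H3K27ac mark promoters and enhancers, H3K36me3 is laid down behind elongating RNA polymerase along transcribed gene bodies, H3K27me3 marks Polycomb-repressed chromatin, H3K9me3 marks heterochromatin, and H2A.Z is a histone variant of promoters and enhancers. Genome-wide, the lists under the H2A.Z and H3K9me3 labels overlapped active marks in directions opposite to this background (values below), and they are therefore named by their labels (list labelled H2A.Z, list labelled H3K9me3).

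The promoters of the gene are shown because H3K27ac peaks lay both over the gene start and 117.1 kb into the gene. RefSeq (GRCh38.p14) lists 6 ESR1 starts in its table of 35116 promoter windows, each with 250 bases before the start and 50 after it. Numbered along the gene and measured from start 2, start 1 lay at -33.9 kb and starts 3 to 6 lay at 115.2, 116.7, 117.2 and 118.6 kb. Starts 1 and 2, and the start with the most CpG dinucleotides among the downstream 4 (start 5), are printed with each CpG in capitals. They lie on the plus strand at chr6:151656422-151656721, chr6:151690277-151690576 and chr6:151807432-151807731 of GRCh38.p14. The peaks are on hg19 and the builds were not aligned, so no start was placed on a peak.
ESR1 start 1: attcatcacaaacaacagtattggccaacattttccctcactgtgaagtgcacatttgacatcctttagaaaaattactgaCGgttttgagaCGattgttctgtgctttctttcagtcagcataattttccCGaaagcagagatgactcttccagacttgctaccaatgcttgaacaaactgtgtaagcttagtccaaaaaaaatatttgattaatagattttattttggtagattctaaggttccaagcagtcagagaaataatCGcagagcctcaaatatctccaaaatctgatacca
ESR1 start 2: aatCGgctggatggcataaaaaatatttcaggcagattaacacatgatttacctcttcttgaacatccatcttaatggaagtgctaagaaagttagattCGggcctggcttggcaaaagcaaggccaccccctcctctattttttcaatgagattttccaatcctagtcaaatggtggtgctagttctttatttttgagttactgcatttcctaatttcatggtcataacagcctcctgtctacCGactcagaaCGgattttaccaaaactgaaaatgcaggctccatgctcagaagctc
ESR1 start 5: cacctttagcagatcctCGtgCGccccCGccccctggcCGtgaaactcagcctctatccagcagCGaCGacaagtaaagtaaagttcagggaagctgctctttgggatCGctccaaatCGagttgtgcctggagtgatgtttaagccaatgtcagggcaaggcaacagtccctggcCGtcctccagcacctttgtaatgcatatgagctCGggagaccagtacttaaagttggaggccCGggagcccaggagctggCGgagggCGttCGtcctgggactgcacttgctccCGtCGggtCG
The windows of starts 1 and 2 were AT-rich with few CpG, and that of start 5, printed for its high count, held more. Starts 1 and 2 held 4 CpG each, at 36.3 and 41% GC, and 29.6% of all promoter windows held as few CpG or fewer. The window of start 5 held 17 CpG at 58.3% GC, against a median of 14 CpG over all windows. Starts 3, 4 and 6, not printed, held 7, 4 and 12 CpG, so start 4 had as few as starts 1 and 2.

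Letters of binding motifs were searched on both strands of the 6 windows. The palindromic estrogen response element (GGTCANNNTGACC) was in 0 of 6 and in 0.057% of all promoter windows. Its core (GGTCA) was in 1 of 6, at start 2, and in 37.4% of all windows. The GC box (GGGCGG) was in 2 of 6, at starts 4 and 5, and in 45% of all windows. The forkhead core (TGTTTAC), the GATA core (AGATAA) and the TATA box (TATAAA) were in 0 of 6, and in 3.42, 10.3 and 11.5% of all windows. These matches describe letters in windows of 300 bases and show no binding.

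Over the window, the active marks and the elongation mark were dense and the Polycomb mark had no peak. H3K36me3 had 67 peaks covering 142.4 kb, or 23.7% of the window. H3K27ac had 18 peaks covering 56.6 kb (9.43%), and H3K4me2 had 39 peaks covering 34.7 kb (5.78%). H3K27me3 had 0 peaks, the list labelled H2A.Z had 1 and the list labelled H3K9me3 had 2. Antibody, sequencing depth and calling threshold all set how many peaks a list has, so the lists are compared by position and not by amount. Where no peak is listed, weaker signal may still be present.

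**Figure D1:**
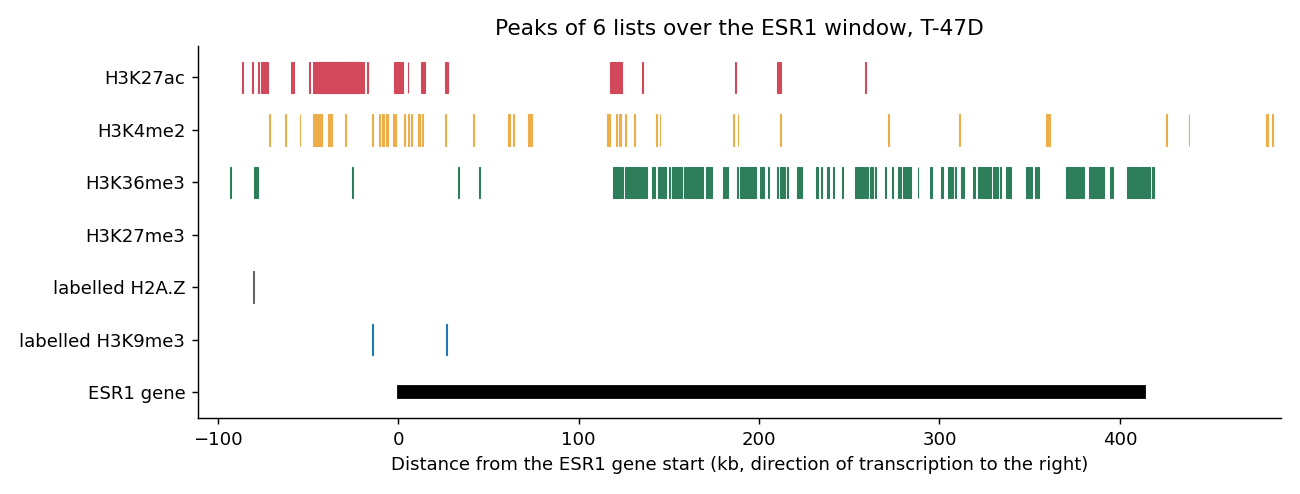
Peaks of the 6 lists along the ESR1 window, with the distance from the gene start in kb on the x axis, 1 row per list and the gene as a black bar. Most H3K27ac and H3K4me2 peaks sit before the gene or in its upstream part, and a dense run of H3K36me3 peaks begins 119.2 kb into the gene and ends just past the gene end.

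The window was set beside 1000 random autosomal windows of the same length that hold an H3K36me3 peak. The ESR1 window had more H3K27ac and H3K36me3 than nearly all of them. H3K27ac covered 56.6 kb in the ESR1 window, against a median of 6.98 kb in the 1000 windows (quartiles 2.82 and 14.4 kb), and 1.1% of the windows held as much or more. H3K36me3 covered 142.4 kb, against a median of 23.04 kb (6.71 and 48.3 kb), and 1.5% of the windows held as much. H3K4me2 covered 34.7 kb, against a median of 13.4 kb (7.28 and 21.6 kb), and 6.7% of the windows held as much. As much of both H3K27ac and H3K36me3 was found in 3 of the 1000 windows. The windows are a description of the genome in these libraries, and 271 of them overlapped the next one along the chromosome.

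The high place of the ESR1 window in H3K27ac came with wide peaks more than with many peaks. By number, 18 H3K27ac peaks stood against a median of 6, and 15.8% of the windows held as many. Windows rich in H3K36me3 were also richer in active marks. Among 1000 windows with at least as much H3K36me3 as ESR1, 15.7% held as much H3K27ac (median 30.7 kb) and 23.3% held as much H3K4me2 (median 25.7 kb). These windows came from 86 separate stretches of the genome, and many repeat the same regions.

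The remaining lists had few or no peaks in the ESR1 window, and the share of other windows that held as little differed by list. Windows without any H3K27me3 peak made up 22.7% of the 1000, and 45.8% of those with as much H3K36me3 as ESR1. The list labelled H2A.Z covered 0.501 kb in the ESR1 window, against a median of 1.5 kb, and 37.1% of the windows held as little, or 67.7% of those with as much H3K36me3 as ESR1. The list labelled H3K9me3 covered 1.0 kb, against a median of 2.91 kb and a lower quartile of 1.23 kb, and 22.1% of the windows held as little, or 10.2% of those with as much H3K36me3.

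**Figure D2:**
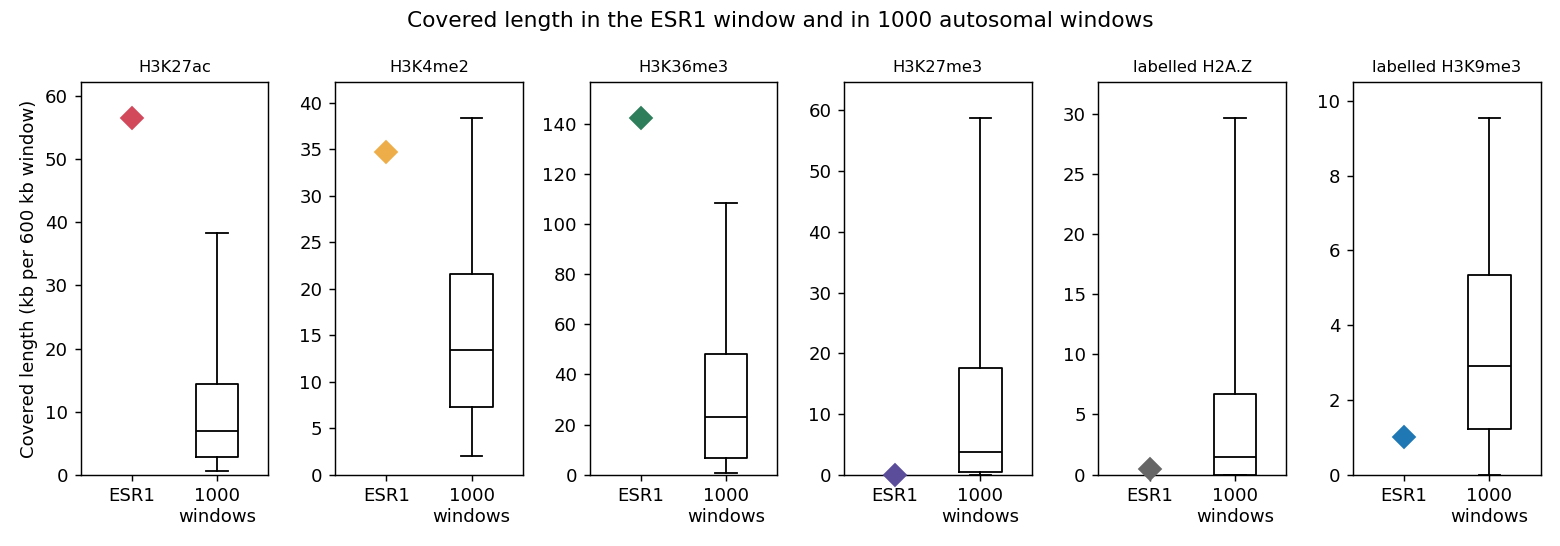
Covered length in kb per 600 kb window for each list, with the ESR1 window as a diamond and the 1000 autosomal windows as a box (median and quartiles, whiskers at the 5th and 95th percentiles). The ESR1 diamond lies above the upper whisker for H3K27ac (56.6 kb) and H3K36me3 (142.4 kb), below it for H3K4me2 (34.7 kb), and at or near 0 for the other lists.

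The largest body of H3K27ac in the window lay before the gene start used here. A pair of overlapping H3K27ac peaks, at 151963580 to 151990112 (26533 bp) and 151964285 to 151992130 (27846 bp), ranked 7 and 5 by width among the 31610 peaks of the list. Merged they spanned 28.6 kb, the 4th of 31355 merged H3K27ac regions, and made up 50.5% of the H3K27ac length in the window. This region ended 18.9 kb before the gene start and began 47.4 kb before it. RefSeq lists ESR1 start 1 at 33.9 kb before start 2. That distance lies between the edges of this region if the gene start used here is start 2. The builds were not aligned, so this was not checked and no annotated start was placed in the region. The region held 3 H3K4me2 peaks that covered 27.7% of it, and the largest of these (151963982 to 151968975, 4994 bp) ranked 153 of 64735 in its list. That overlap was the 21st longest of 16492 overlaps of H3K27ac with H3K4me2 on the autosomes. The next of the H3K4me2 peaks was 2406 bp wide (151971878 to 151974283). A 501 bp H3K36me3 peak (151985624 to 151986124) also lay in it, and 0 peaks of the other 3 lists did.

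Outside this region the flank before the gene held 7 H3K27ac peaks with midpoints in it, from 151924719 to 151994121. The widest of them was 3629 bp (151935069 to 151938697) and overlapped no other list. With the 28.6 kb region above included, 39.1 kb of the H3K27ac length in the window lay in this flank, which was 35.2% of the flank. The flank also held the first H3K4me2 peak of the window (151939396 to 151940023, 628 bp) and 2 H3K36me3 peaks away from the wide region, at 151917601 to 151918419 (819 bp) and 151931356 to 151933212 (1857 bp). The flank may also include parts of neighbouring genes: in RefSeq's order (GRCh38.p14) the protein-coding neighbours of ESR1 are CCDC170, which encodes a coiled-coil protein, before it, and SYNE1, which encodes the nuclear envelope protein nesprin-1, after it. Their hg19 bounds were not used here.

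The gene start used here is an approximate position. An H3K27ac peak of 5384 bp (152008422 to 152013805) reached 2578 bp before and 2805 bp past it. H3K4me2 lay on its upstream edge, at 152008036 to 152009930, and shared 1509 bp with it. H3K36me3 covered none of this peak. H3K4me2 extended to both sides as a row of small peaks, with 3 more from 152000467 to 152005094 that had no H3K27ac, and others from 152014422 (501 bp) to 152024532 inside the gene. Between 152038461 and 152128145 the gene had no H3K27ac peak over 89.7 kb, a stretch that 5 H3K4me2 peaks touched. The widest of these (152082753 to 152084955, 2203 bp) overlapped no other list.

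A further H3K27ac peak of 7045 bp (152128146 to 152135190) began 117.1 kb after the gene start, and ranked 232 in its list. The dense run of H3K36me3 peaks began within this peak. The run was taken to start at the end of the longest H3K36me3 gap inside the gene. The first H3K36me3 peak of the run (152130239 to 152134516, 4278 bp) started 2093 bp inside the H3K27ac peak and lay entirely in it. This was the 5th longest of 4100 overlaps of H3K27ac with H3K36me3 on the autosomes. H3K36me3 covered 61.0% of this H3K27ac peak, against 0 in the H3K27ac peak at the gene start. H3K4me2 covered 29.7% of it, against 28.0% at the gene start. Its H3K4me2 lay on the upstream edge (152126943 to 152128599, 1657 bp) and within the H3K36me3 part (152131630 to 152132277 and 152133547 to 152134535).

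**Figure D3:**
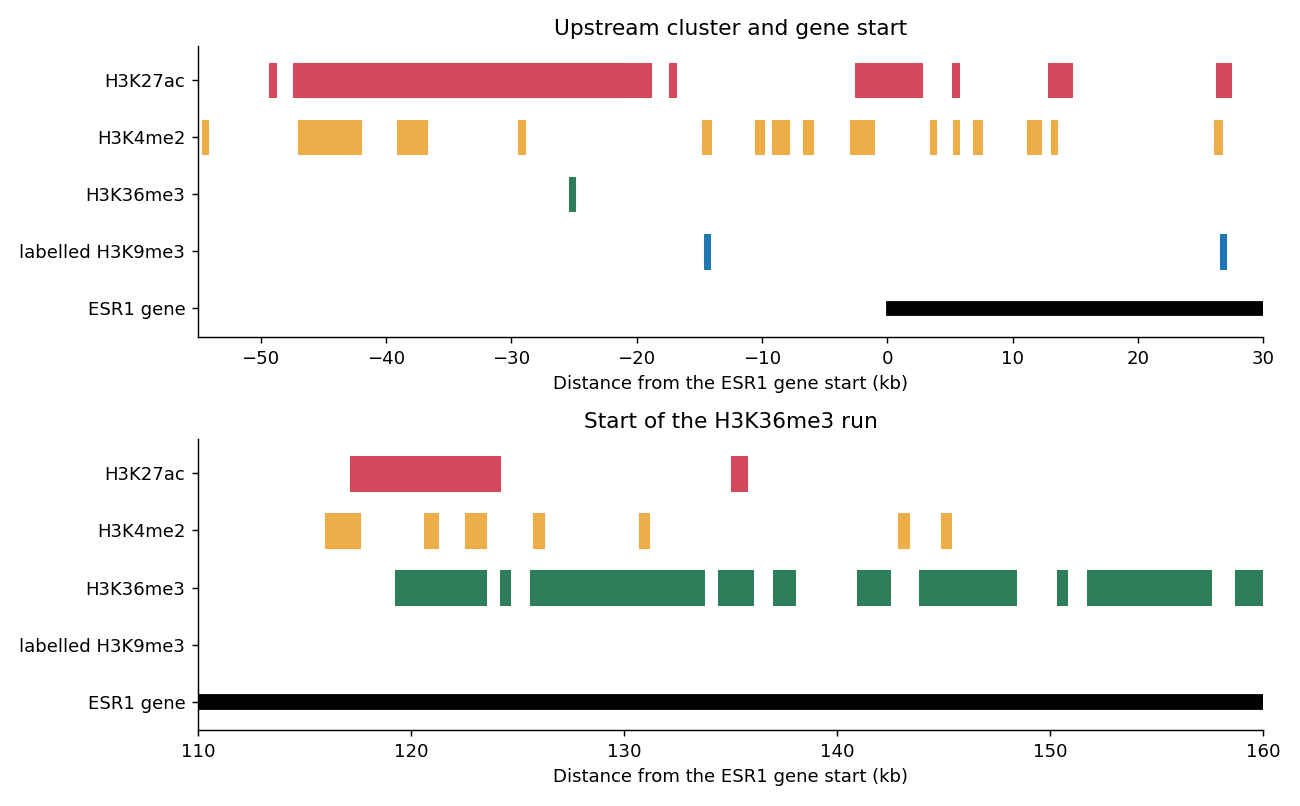
Peaks of 4 lists around the upstream H3K27ac region and the gene start (top) and around the start of the H3K36me3 run (bottom), by distance from the gene start in kb. In the top panel the 28.6 kb H3K27ac region has 3 H3K4me2 peaks and almost no H3K36me3. In the bottom panel the 7045 bp H3K27ac peak carries H3K36me3 from 2093 bp inside its upstream edge.

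H3K36me3 divided the gene into an upstream part with almost none and a body with dense peaks. In the first 119.2 kb of the gene H3K36me3 covered 0.84%, as a pair of 501 bp peaks (152044158 to 152044658 and 152056000 to 152056500). The longest H3K36me3 gap in the window, 73.7 kb, followed and ended at 152130238. From there to the gene end 61 peaks covered 45.5% of 294.8 kb, with a median gap of 1599 bp over the run and a longest gap of 15.02 kb. The last of these (152422341 to 152427824) ended 2.82 kb past the gene end, and 1 more (152428809 to 152430013) followed. RefSeq's bounds of ESR1 and SYNE1 overlap in GRCh38.p14 at the ESR1 end, so peaks there cannot be given to either gene. The widest peaks were 9015 bp (152200171 to 152209185), 8330 bp (152171824 to 152180153), 8182 bp (152136585 to 152144766), 8175 bp (152393955 to 152402129) and 7889 bp (152381165 to 152389053).

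Within the run, coverage was highest at its upstream end, lower in the middle and uneven towards the gene end. Of consecutive 20 kb bins, that from 120 to 140 kb after the gene start was covered to 74.4%, and those up to 200 kb were at 68.7, 59.1 and 57.6%. The 6 bins from 200 to 320 kb were at 23.2 to 35.1%. The 5 bins from 320 to 420 kb were at 62.9, 24.7, 46.1, 47.5 and 68.2%. When the gene was cut into 4 equal parts of 103.5 kb, H3K36me3 covered 0.968, 53.8, 29.6 and 46.3% of them in the direction of transcription. The 25 peaks of part 3 had a median width of 915 bp, against 1617 bp for the 18 of part 2 and 1667 bp for the 17 of part 4.

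The active marks lay mostly in the upstream parts of the gene. H3K27ac covered 6.22, 8.16, 2.55 and 0% of the 4 parts, and H3K4me2 covered 7.92, 6.21, 0.968 and 1.6%. The last H3K27ac peak (152269630 to 152270130, 501 bp) lay 259.1 kb into the gene, and none followed for 353.0 kb. H3K4me2 continued thinly, with 5 peaks of 501 to 650 bp in parts 3 and 4 and 4 after the gene, the last at 152495177 to 152495677.

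**Figure D4:**
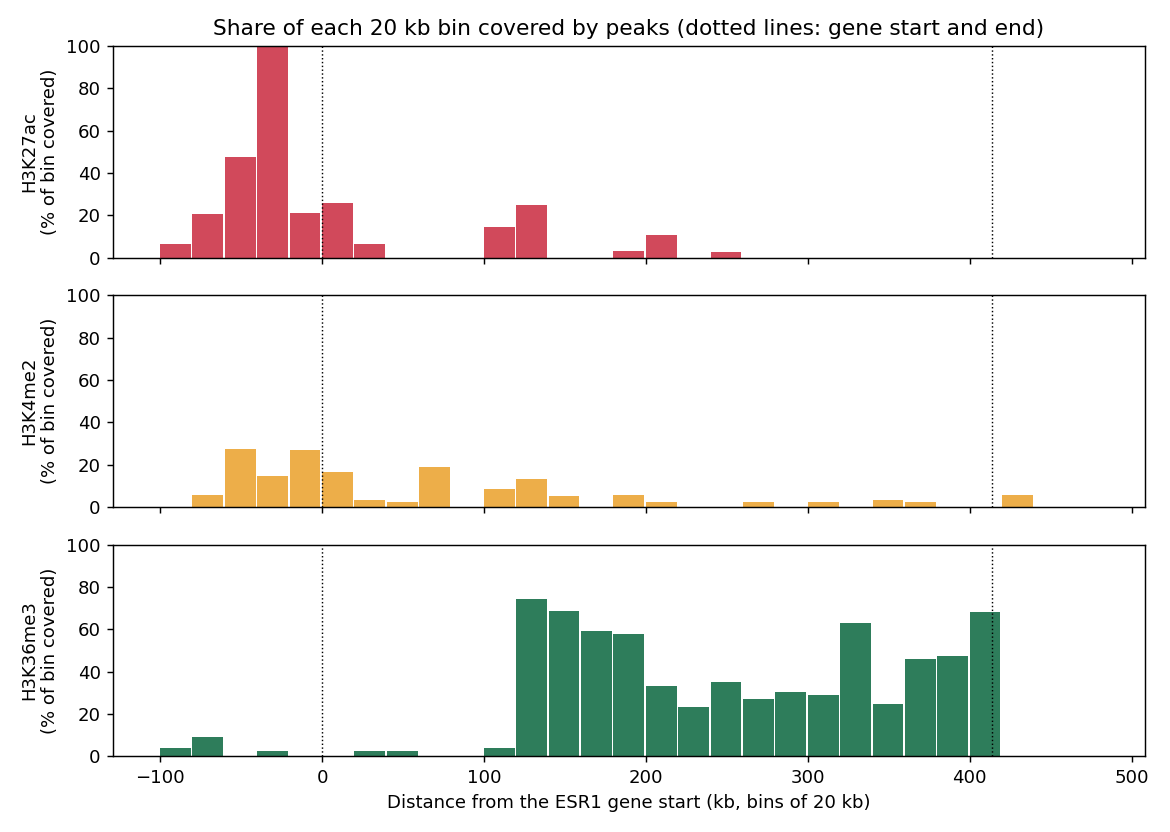
Percent of each 20 kb bin covered by H3K27ac, H3K4me2 and H3K36me3 peaks, by distance from the gene start in kb, with dotted lines at the gene start and end. H3K27ac fills the bin from 40 to 20 kb before the gene, while H3K36me3 rises to 74.4% in the bin from 120 to 140 kb after the start and stays above 23% to the gene end.

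Inside the window, the share of H3K27ac peaks on H3K4me2 was close to that on the autosomes, and the share on H3K36me3 was higher, with no test of either. Of the 18 H3K27ac peaks, 8 (44.4%) overlapped H3K4me2, against 48.9% of all autosomal H3K27ac peaks. Of the 39 H3K4me2 peaks, 11 (28.2%) overlapped H3K27ac, against 25.6% on the autosomes. With H3K36me3, 6 of 18 H3K27ac peaks overlapped (33.3%), against 13% on the autosomes, and 7 of 39 H3K4me2 peaks did (17.9%), against 4.1%. The overlapping pair of H3K27ac peaks before the gene counts as 2 of the 8 and 2 of the 6, although both lie in the same merged region. Of the 67 H3K36me3 peaks, 7 overlapped H3K27ac (10.4%, against 6.63%) and 5 overlapped H3K4me2 (7.46%, against 4.88%). H3K36me3 covers more of this window than of most, which moves with these shares, and its part in them was not tested.

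The H3K36me3 overlaps can be placed against the run, whose start is where dense H3K36me3 begins, so these counts describe positions and carry no further comparison. Of the 13 H3K27ac peaks that ended before the run, 2 overlapped H3K36me3, both on the same 501 bp peak in the upstream region. Of the 5 that reached or followed its start, 4 did. For H3K4me2 the counts were 0 of 22 before the run and 7 of 17 from its start on. The H3K27ac peak in the run without H3K36me3 (152197665 to 152198294) fell in a gap between H3K36me3 peaks and overlapped no other list. By length, 133.7 kb of the window carried H3K36me3 alone, 37.5 kb H3K27ac alone, 19.1 kb H3K4me2 alone and 11.3 kb H3K27ac with H3K4me2. All of H3K27ac, H3K4me2 and H3K36me3 shared 1.98 kb, and 388.1 kb (64.7%) carried no list. These lengths were not taken over the autosomes or the random windows, so they describe this window only.

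The few peaks of the lists labelled H2A.Z and H3K9me3 were all 501 bp wide and overlapped active marks, that labelled H2A.Z only at its edge. The peak labelled H2A.Z (151930679 to 151931179) lay 79.8 kb before the gene and shared 110 bp with an H3K27ac peak of 736 bp. Its other 391 bp overlapped no other list. Across the autosomes 24 peaks of that list overlapped H3K27ac (0.0462%), of which this is 1, and 0.078% of H3K27ac peaks met that list. The peaks labelled H3K9me3 lay 14.1 kb before the gene start (151996392 to 151996892), inside an H3K4me2 peak, and 26.6 kb after it (152037552 to 152038052), inside an H3K27ac peak and partly on H3K4me2. On the autosomes, 30.2% of the peaks labelled H3K9me3 overlapped H3K27ac and 35.2% overlapped H3K4me2, and 19.4% of H3K27ac and 11.2% of H3K4me2 peaks met that list. With 1 and 2 peaks, no share can be read from either list here.

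The nearest H3K27me3 peaks lay 312.4 kb before the window and 187.5 kb after it. The span between them, 1100 kb, was the 439th longest of 63685 H3K27me3-free spans on the autosomes. Stretches of any length between neighbouring peaks count as spans, so this rank does not show how rare such stretches are. Windows without any H3K27me3 peak made up 22.7% of the 1000 random windows.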

How the data were processed

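Peaks were measured by ChIP-seq, with 1 library per antibody. The deposited files are peak lists that give each peak's chromosome, start, end and name, with no other score, fold or signal value, so the depth is unknown. The submitters' processing notes name Bowtie2 2.1.0, HOMER 4.2, hg19 and GRCh37, without their roles. How peaks were called, and whether the input was used, is not given in the sources used here. Of all peaks, 52.4% were 501 bp wide, so narrower structure is not resolved.

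Starts were converted to 1-based positions. Overlap meant at least 1 shared bp, and covered length was the union of a list's peaks. H3K27ac had 255 peaks starting inside a peak of the same list. Random windows (1000, seeded) were drawn uniformly along the 22 autosomes to the last peak and kept where they held an H3K36me3 peak and did not touch the ESR1 window. No p-value was computed. The named peaks are the 5 widest of a list, its first and last, those within 5 kb of the gene start, and all of lists with 10 or fewer. Other peaks given by position were chosen after their values were seen. The locus, windows and rules were chosen with earlier results of these data known, and stretches without peaks, the H3K36me3 run, the 20 kb bins and the lone H3K27ac peak were examined after the values were seen. Genes other than ESR1 were not described, since an hg19 annotation was not used here. The interval functions were tested on simulated data. Alternatives were wider peaks, merging within 1 kb, midpoints, tiled windows, windows off peak-free spans, windows rich in H3K36me3, and an overlap of at least 50%. Computation used Python 3.11.15, numpy 2.4.6 and pandas 2.3.3.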

Additional observations from a re-analysis of the deposited data

How the results depend on the processing

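Of 59 recomputed values, 32 stayed within the limits set and 27 moved. For counts the limit was a change of no more than 1.5 times. For window shares it was the 95% Wilson interval of the main share. A change of direction was not scored. For the list labelled H2A.Z, the ESR1 window was below the median of the main windows (37.1% held as little). Among windows with at least as much H3K36me3 it was at or above the median (67.7% held as little). Keeping the peaks above their own list's median width left 11 H3K27ac, 19 H3K4me2 and 44 H3K36me3 peaks in the window, against 18, 39 and 67, and 0 of both lists labelled H2A.Z and H3K9me3. It put the share of windows with as much H3K27ac at 0.4%, against 1.1%. It put those with as little H3K27me3 at 38.1%, against 22.7%, and those with as little of the list labelled H2A.Z at 47.4%, against 37.1%. With those peaks, H3K27ac met H3K4me2 at 4 peaks and H3K36me3 at 3, against 8 and 6, and H3K4me2 met H3K36me3 at 2, against 7. The overlaps of H3K27ac with the list labelled H2A.Z, and of H3K27ac and of H3K4me2 with the list labelled H3K9me3, fell to 0. These counts are lower by construction, since narrow peaks are left out. Requiring 50% of the shorter peak to be shared left 0 H3K27ac peaks on the list labelled H2A.Z and 1 H3K4me2 peak, against 2, on the list labelled H3K9me3. Counting peaks in place of length gave shares of 15.8% for H3K27ac, 0.7% for H3K36me3 (against 1.5%) and 30.7% for the list labelled H3K9me3 (against 22.1%). Windows with at least as much H3K36me3 gave 15.7% for H3K27ac, 23.3% for H3K4me2 (against 6.7%), 45.8% for H3K27me3, 67.7% for the list labelled H2A.Z and 10.2% for that labelled H3K9me3. Tiled windows gave 41.0% and 24.9% for the last 2 lists, and windows off peak-free spans gave 42.2% for the list labelled H2A.Z. The causes of these window shifts were not tested. No paired analysis was possible because each mark has 1 library. Depth, copy number and peak height could not be taken into account, and the gene bounds are approximate.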

Other observations

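The tiled autosomal windows most like the ESR1 window, by Euclidean distance in log10(covered bp + 1) over the 6 lists, were compared among 2808 windows that hold an H3K36me3 peak. The nearest lay on chromosome 19 (600002 to 1200002, distance 0.375), chromosome 1 (93600157 to 94200157, 0.415) and chromosome 16 (67200113 to 67800113, 0.438). That on chromosome 19 had 64.8 kb of H3K27ac, 34.3 kb of H3K4me2 and 105.4 kb of H3K36me3. That on chromosome 1 had 39.5, 30.1 and 83.5 kb of these lists, and that on chromosome 16 had 34.4, 42.8 and 63.3 kb. All 3 had 0 kb of H3K27me3, which the measure itself favours, since any peak of a list absent from the ESR1 window adds a large distance. The likeness rests on covered length and not on the order of marks.

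After the last H3K36me3 peak downstream of ESR1, no H3K36me3 peak was listed for 861.2 kb (152430014 to 153291167), the 678th longest of 50884 gaps between H3K36me3 peaks on the autosomes. Gaps of any length are counted, so this rank does not give the share of the genome that lies in long gaps. The flank after the gene held 4 H3K4me2 peaks, of 501 to 823 bp, that overlapped no other list. In the whole window this held for 23 of 39 H3K4me2 peaks, so it is not particular to the flank. On the autosomes 25.6% of H3K4me2 peaks overlapped H3K27ac, 11.2% the list labelled H3K9me3 and 4.1% H3K36me3. A further 1.21% overlapped H3K27me3 and 0.251% the list labelled H2A.Z, and a peak may count in several of these. The autosomal share that overlapped no other list was not computed, so the counts of such peaks here describe this window only.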
